A study of Mus musculus with 1279 samples.

Results

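Axon guidance genes encode 4 families of secreted or membrane-bound ligands, the semaphorins, ephrins, slits and netrins, together with the plexins, neuropilins, Eph receptor tyrosine kinases, Robo and Unc5 proteins that bind them. They were chosen by symbol, as the protein-coding genes named Sema3 to Sema7, Plxn, Nrp1 and Nrp2, Epha and Ephb with a digit, Efna, Efnb, Slit1 to Slit3, Robo1 to Robo4, Ntn1, Ntn4 and Unc5a to Unc5d. The rule found 66 of the 21547 protein-coding genes in the table, 33 ligands and 33 receptors. Ntn3 was also in the rule and was not analysed here. At least 1 read fell on 63 of the 66, and all 66 together took 0.119% of the gene counts. Epha6, Epha8 and Robo3 had no read in any of the 1279 cells, which allows a share of cells with a read of up to 0.235%.

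Cells of the adult mouse heart had been sorted singly into wells and sequenced with Smart-seq2, which reads whole transcripts and carries no molecular identifiers, so that a count is a read and not a molecule. The mice were males of 10 to 20 weeks. The 1279 cells fell into 4 strains. C57BL6 cells (581 cells on 3 plates) came from mice without a reporter and were sorted with antibodies to the platelet-derived growth factor receptors PDGFRα or PDGFRβ, whereas the strains PdgfrbGFP (364 cells), Cspg4dsRED and Acta2GFP (the remaining cells) each filled 1 plate and carried the transgenes Tg(Pdgfrb-eGFP), Tg(Cspg4-DsRed.T1) and Tg(Acta2-GFP), which mark cells in which the regulatory sequence of that gene is active. Cells positive for the endothelial protein CD31 were gated out in every strain, and elastase was added when Acta2GFP hearts were dissociated. The cells carried the numbers of 8 clusters that the authors had formed from the same counts. Clusters 1 to 5 (926 cells) are fibroblasts in the study's text, and clusters 6 to 8 (353 cells), for which it names no heart identity, are called mural cells here, that is, pericytes and vascular smooth muscle. The labels name no animals, so the strain was the replicate, and strain, plate and sort cannot be told apart.

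Guidance proteins were first described as cues that attract or repel growing axons, and the same proteins steer endothelial cells, mural cells and migrating mesenchyme. Class 3 semaphorins are secreted and act through a neuropilin paired with a plexin, the other semaphorins of vertebrates are mostly bound to membranes and bind plexins directly, ephrins signal between touching cells, slits bind Robo receptors, and netrins bind Dcc and Unc5 receptors. In the heart, Sema3c and its receptors are known from the septation of the outflow tract, and ephrin-B2 with EphB4 from the parting of arteries and veins.

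The depth per cell was 46268 to 1302397 reads, with a median of 274504. Median genes detected per cell were 6388 in Acta2GFP, 4265 in Cspg4dsRED, 4125 in C57BL6 and 3358 in PdgfrbGFP. Counts were summed per strain and group and are given as CPM, the reads of a gene scaled to 1000000 gene reads in the sum, with mean ± SD over strains that had at least 3 cells in the group. In such sums, fewer cells with a transcript and less RNA per cell cannot be told apart. Markers were checked against these types. Pdgfra, Dcn, Lum, Col1a1 and Col1a2 together stood at 12270 ± 1280 CPM in fibroblasts (n = 4 strains) and at 1742 ± 583 CPM in mural cells, and Rgs5, Notch3, Des, Mcam and Cspg4 together at 155.4 ± 97.4 and 7923 ± 2995 CPM. Among the mural clusters, the smooth muscle genes Acta2, Myh11, Tagln and Cnn1 summed to 12730 ± 2651 CPM in cluster 7, 11450 ± 1759 in cluster 6 and 1510 ± 1728 in cluster 8, and the pericyte genes Kcnj8, Abcc9, Vtn and Rgs4 to 2948 ± 862, 419 ± 211 and 11860 ± 5294 CPM. Cluster 6 is thus counted as mural by its smooth muscle genes, since the 5 mural genes stood there at 1693 ± 844 CPM, below 7523 ± 2868 in cluster 7 and 9440 ± 2899 in cluster 8, and the 5 fibroblast genes at 6274 ± 5385 CPM (n = 3 strains), which goes against the name.

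Of the 66 genes, 43 reached 10 CPM in at least 1 cluster, 21 ligands and 22 receptors. Their highest cluster differed: it was cluster 6 for 8 of them, clusters 1 and 8 for 7 each, cluster 7 for 6, clusters 3 and 4 for 5 each, cluster 5 for 4 and cluster 2 for 1. Per kilobase of exonic length, which allows levels to be compared between genes, the highest member was Efna1, the ephrin-A1 ligand, at a mean of 89.5 CPM per kb in cluster 3, which fell to 47 without the 7 PdgfrbGFP cells, below Nrp1. Nrp1, the neuropilin-1 co-receptor for class 3 semaphorins and VEGF-A, stood at 57.5 CPM per kb in cluster 8, and at 52.4 to 62.6 with a strain left out. Efna5, another ephrin-A ligand, came next at 35.15 CPM per kb in cluster 6. Of the top genes of the other families, Sema3c reached 32.5 CPM per kb in cluster 4, Plxnb2 reached 31.99 in cluster 7, Sema6d reached 31.4 and Epha2 reached 29.9 in cluster 8. The top member of the slits, Slit3, reached 24.7 CPM per kb in cluster 5, Ephb4 reached 22.9 in cluster 6, Ntn1 reached 18.1 in cluster 4, Unc5b reached 17.9 in cluster 1 and Efnb1 reached 12.03 in cluster 4. In a check added after the values were seen, in which each strain was left out in turn, other means also rested on 1 strain: without Acta2GFP, Ephb4 stood at 3.04 and Epha2 at 14.6 CPM per kb, without Cspg4dsRED Efnb1 stood at 3.09 and Robo1 at 2.49, and without PdgfrbGFP Plxnb2 stood at 18.1. Of the families, the Robo receptors had the lowest top value, 3.83 CPM per kb of Robo1 in cluster 1.

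**Figure D1:**
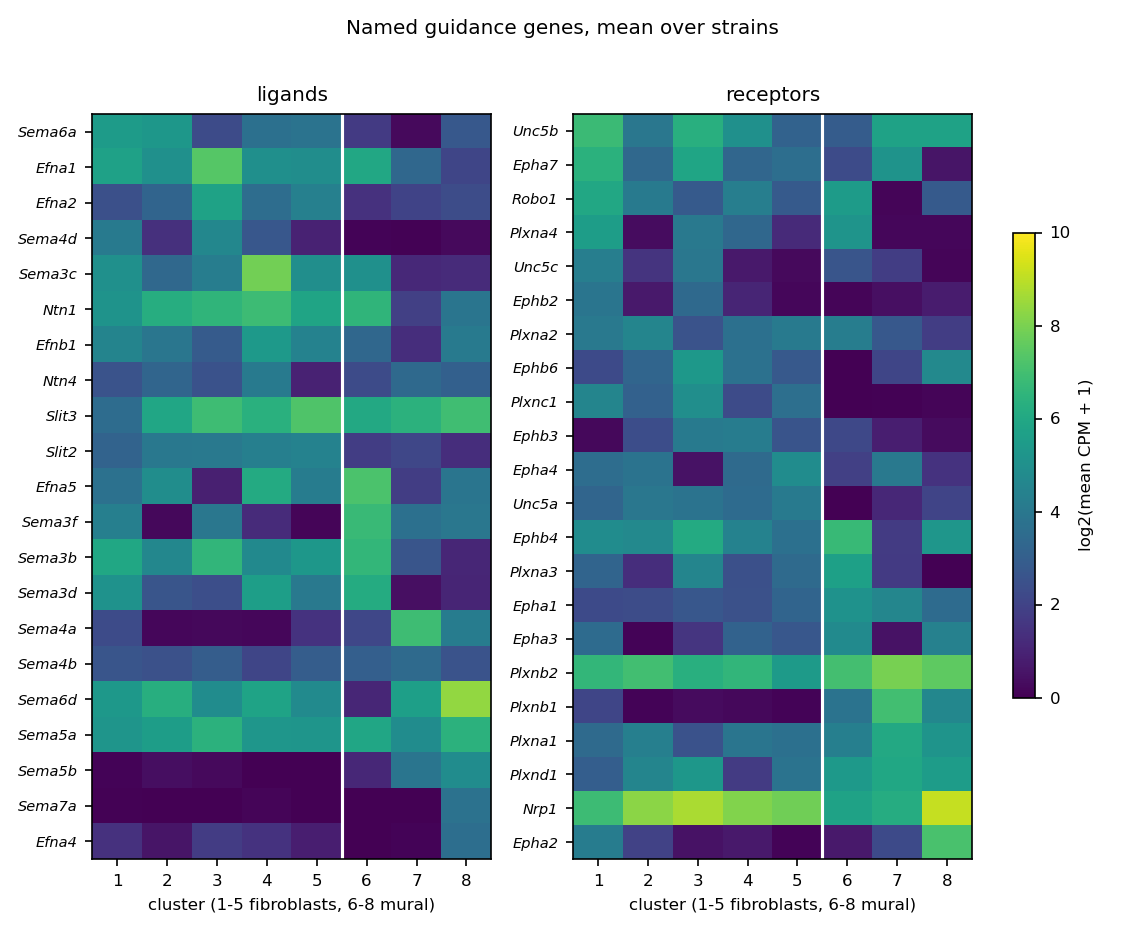
Heat map of log2(mean CPM + 1) of the 43 guidance genes that reached 10 CPM in at least 1 cluster, ligands on the left and receptors on the right; columns are clusters 1 to 8, rows are ordered by their highest cluster, and each cell is the mean over strains with 3 or more cells. Nrp1 and Plxnb2 are bright in every column, whereas Sema3c stands out in cluster 4, Sema6d and Epha2 in cluster 8, and Plxnb1 in cluster 7.

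The first comparison asked which guidance genes separate fibroblasts from mural cells. After the filter on low counts, 43 of the 66 members were tested (not the same 43 as above, since Nrp2 and Sema4c take the place of Sema5b and Sema7a), and 4 passed an adjusted p of 0.05 with edgeR's quasi-likelihood test. Sema3c, Sema4d and Plxnc1 were higher in fibroblasts and Plxnb1 was higher in mural cells, each in 4 of 4 strains. The cardiomyocyte genes Myh6, Tnnt2, Actn2, Ttn and Tnni3 together stood at 51.8 ± 32.3 CPM in fibroblasts (15.1 to 93.3) and at 191.3 ± 57.6 CPM in mural cells (120.1 to 239.1) without overlap, the dissociation stress genes Fos, Jun, Egr1, Atf3 and Hspa1a at 7561 ± 2727 and 4543 ± 897 CPM, and their part in the comparison was not tested. Over all 15117 genes tested, 5.93% passed, 3.47% higher in fibroblasts and 2.45% higher in mural cells. At an unadjusted p under 0.05 there were 11 members, against 17% of all genes, and DESeq2 called 8 members (those 4 with Epha2, Ephb2, Sema4a and Sema6d), against 12.7% of all genes. The median log2 fold change of the 43 members was 0.59 (fibroblasts over mural cells), beside -0.02 over all genes. It was 1.12 for the 20 ligands tested, 14 of them with an estimate above 0, and 0.21 for the 23 receptors, 14 of which were also above 0.

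Sema3c (chr5:17574281-17730268, plus strand, GRCm38), the secreted class 3 semaphorin, was measured in the fibroblasts of C57BL6, PdgfrbGFP, Cspg4dsRED and Acta2GFP at 67.7, 94.05, 61.6 and 121.7 CPM. In mural cells of these strains it was at 0.927, 0.972, 15.7 and 6.10 CPM. The highest mural sum lay below the lowest fibroblast sum, and the mean was 86.3 ± 27.5 against 5.91 ± 6.93 CPM (log2 fold change 3.88, SE 0.89, adjusted p = 0.0291). Of the 554 mural reads in Cspg4dsRED, 541 came from cluster 6, and all 14 mural cells with 10 or more reads were in that cluster. Without clusters 1 and 6 the log2 fold change was 6.22 (adjusted p = 0.000492). Leaving out Acta2GFP, C57BL6 or PdgfrbGFP ended the call, with adjusted p of 0.153, 0.085 and 0.0978.

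Plxnb1 (chr9:109095389-109119917, plus strand), which encodes plexin-B1, a receptor of class 4 semaphorins, had the reverse pattern. Its fibroblast sums were 0.0602, 0.124, 1.14 and 1.28 CPM in C57BL6, PdgfrbGFP, Cspg4dsRED and Acta2GFP, and its mural sums were 39.1, 48.4, 71.2 and 25.4 CPM. No fibroblast sum came near a mural sum, and the means were 0.65 ± 0.647 and 46.04 ± 19.3 CPM (log2 fold change -6.27, SE 1.12, adjusted p = 0.0096). At least 10 reads were present in 33 of 353 mural cells (9.35%) and in 2 of 926 fibroblasts, and 8 cells held 50% of the mural reads. The top cell alone gave 52.1%, 43.6%, 15.3% and 53.7% of the mural reads in the 4 strains. Without PdgfrbGFP the adjusted p was 0.0519. Plxnb1 would not have passed the filter on low counts without its mural sums, so its call is not independent of that filter.

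Plxnc1 (chr10:94790866-94944835, minus strand), the receptor of semaphorin 7A, stood in fibroblasts at 11.7, 6.75, 3.13 and 17.1 CPM in the same strain order. In mural cells it had no read in C57BL6 and Cspg4dsRED, 5 reads (0.243 CPM) in PdgfrbGFP and 2 reads (0.0975 CPM) in Acta2GFP. The groups did not overlap (log2 fold change 6.66, SE 1.54, adjusted p = 0.031), but the reads came from few cells: 30 of 926 fibroblasts (3.24%) had 10 or more reads, 6 of them held 50% of the reads, and no mural cell had 10. Every strain left out ended the call, with adjusted p between 0.0565 and 0.173, and strain as a replicate block ended it too. Plxnc1 passed the filter on low counts through its fibroblast sums alone, and a gene that passes in this way has to differ.

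Sema4d (chr13:51685529-51793747, minus strand), a membrane semaphorin that binds plexin-B1 and is best known from lymphocytes, gave 2.46, 0.594, 12.2 and 14.7 CPM in fibroblasts. Among mural cells 8 had 1 read each, which came to 0.141 CPM in Cspg4dsRED, 0.146 CPM in Acta2GFP and 0 in the other two strains. Its lowest fibroblast sum was above every mural sum (log2 fold change 6.48, SE 1.61, adjusted p = 0.0424), and 12 of 926 fibroblasts (1.30%) had 10 or more reads, 3 of which held 50% of them. The top cell of PdgfrbGFP gave 88.4% of that strain's fibroblast reads. Leaving out any strain ended the call (adjusted p between 0.0767 and 0.166), as did testing without the filter on low counts (0.0712). Sema4d passed that filter through its fibroblast sums alone, as Plxnc1 did, and a gene that passes in this way has to differ. Plxnb1, too, passed it only with the sums of its high group. Because Sema4d and Plxnc1 are also leukocyte genes, immune markers were set beside them: Ptprc, Cd68, Csf1r, Lyz2 and Cd74 summed to 21.7 ± 21.7 CPM in fibroblasts, beside 28.7 ± 26.2 CPM in mural cells, and no cell of either group had 10 or more Ptprc reads. The authors had removed cells with immune signatures, so the lack of such cells was set in part by that removal. The part of leukocytes in these values was not tested.

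**Figure D2:**
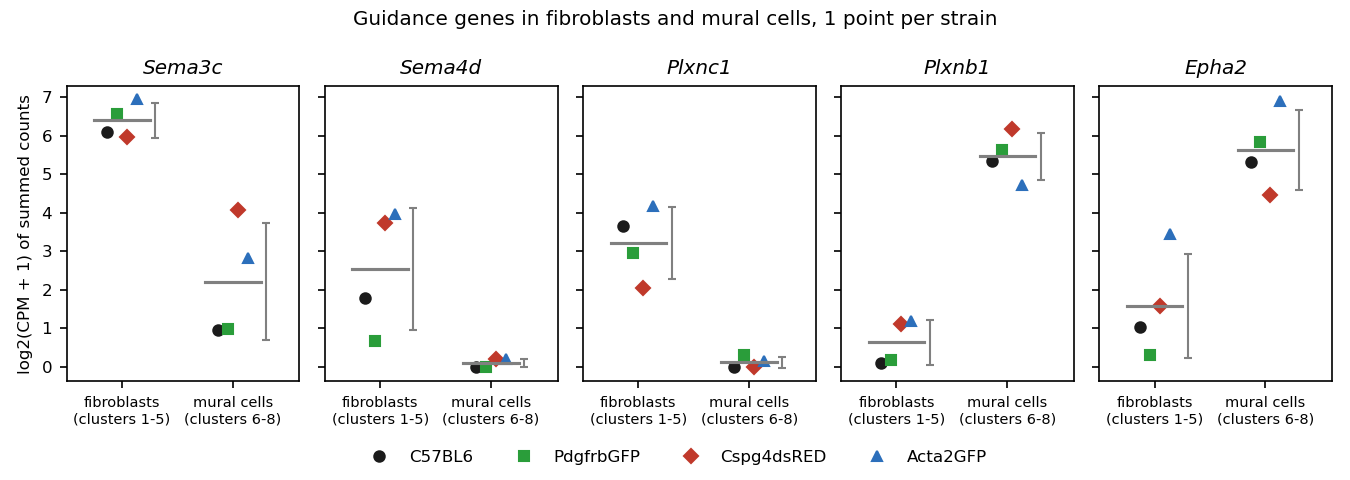
Log2(CPM + 1) of summed counts of Sema3c, Sema4d, Plxnc1, Plxnb1 and Epha2 in fibroblasts and mural cells, 1 point per strain; the grey line is the mean over 4 strains and the bar beside it is the SD. For all 5 genes the points of one group lie wholly above those of the other, and the distance is widest for Plxnb1.

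The windows around the annotated start of the 3 called members with the most carrying cells are printed to show the base composition from which these transcripts begin. They run from 250 bases before to 50 bases after the start in RefSeq (GRCm38.p6), 5′ to 3′ on the strand of the gene, with GGGCGG or its reverse complement CCGCCC, the core of a GC box, in capitals. The window of Sema3c (chr5:17574566-17574865, plus strand) held 3 such matches, that of Plxnc1 (chr10:94944796-94945095, minus strand) held 4 and that of Plxnb1 (chr9:109095186-109095485, plus strand) held 5.
Sema3c: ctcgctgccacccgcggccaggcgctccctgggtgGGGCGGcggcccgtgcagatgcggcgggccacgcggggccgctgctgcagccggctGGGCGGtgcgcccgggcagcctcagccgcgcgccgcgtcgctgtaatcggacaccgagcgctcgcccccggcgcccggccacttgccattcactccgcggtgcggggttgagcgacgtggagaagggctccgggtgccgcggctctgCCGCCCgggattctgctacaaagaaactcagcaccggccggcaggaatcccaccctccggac
Plxnc1: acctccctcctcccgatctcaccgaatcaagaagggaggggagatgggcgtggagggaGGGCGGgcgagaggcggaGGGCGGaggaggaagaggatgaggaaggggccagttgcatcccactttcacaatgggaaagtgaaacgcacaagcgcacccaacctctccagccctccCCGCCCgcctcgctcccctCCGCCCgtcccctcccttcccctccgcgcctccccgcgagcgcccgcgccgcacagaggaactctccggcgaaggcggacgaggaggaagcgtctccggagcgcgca
Plxnb1: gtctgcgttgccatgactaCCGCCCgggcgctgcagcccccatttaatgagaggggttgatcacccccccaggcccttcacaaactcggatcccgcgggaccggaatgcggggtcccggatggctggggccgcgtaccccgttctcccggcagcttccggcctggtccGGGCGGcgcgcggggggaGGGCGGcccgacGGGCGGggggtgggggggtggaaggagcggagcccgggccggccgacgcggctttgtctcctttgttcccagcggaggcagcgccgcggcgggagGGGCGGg
At least 1 of these letter runs was present in 35.7% of the 32851 windows of that length in the table. Sema4d had 3 annotated windows, with 0, 0 and 1 match. The letters TATAAA, on either strand, were in none of the windows of these 4 genes and in 13.6% of all windows. A match is a run of letters and not a site of binding.

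Epha2 (chr4:141301240-141329384, plus strand), the receptor kinase for ephrin-A1, was at 1.03, 0.221, 1.99 and 9.86 CPM in fibroblasts and at 38.7, 55.7, 20.8 and 119.3 CPM in mural cells. Its groups did not overlap either, with an adjusted p of 0.0527 (log2 fold change -4.23, SE 1.11). The carrying cells were 14 of 353 mural cells (3.97%), 12 of them in cluster 8, and 3 cells held 50% of the reads. Sema6d (chr2:124089969-124667770, plus strand), a transmembrane semaphorin that binds plexin-A1, was at 41.7, 25.7, 113.7 and 57.4 CPM in fibroblasts and at 226, 231, 113.4 and 102.8 CPM in mural cells. The Cspg4dsRED values were nearly equal and the groups overlapped (log2 fold change -1.57, SE 0.48, adjusted p = 0.101).

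The most abundant receptors were shared by both groups. Nrp1 (chr8:128358604-128503363, plus strand) was measured at 247, 193, 322 and 360 CPM in fibroblasts and at 618, 382, 159.3 and 203.9 CPM in mural cells. Mural cells were higher in C57BL6 and PdgfrbGFP and lower in the other two strains. The mural cells of these strains differed in make-up: cluster 8 held 89.2% of them in C57BL6 and 93% in PdgfrbGFP, but 21.2% in Cspg4dsRED and 29.4% in Acta2GFP, and Nrp1 was higher in cluster 8 than in cluster 7 in the 3 strains that had both. In these sums, strain and cluster make-up cannot be told apart. It was also the member carried by most cells, with 10 or more reads in 401 fibroblasts (43.3%) and in 31.7% of mural cells. Plxnb2 (chr15:89155549-89180788, minus strand), the plexin-B2 receptor, stood at 72.6, 46.03, 144.9 and 128.7 CPM in fibroblasts and at 169.2, 176.8, 177.7 and 115.3 CPM in mural cells, and was carried by 19.8% of fibroblasts and 26.9% of mural cells.

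Ntn1, Slit2 and Slit3 were carried by a larger share of fibroblasts than of mural cells and Ntn4 by a smaller one (3.67% against 5.95%), and none of the 4 passed the test. Ntn1 (chr11:68209364-68400823, minus strand), which encodes netrin-1, had 10 or more reads in 192 fibroblasts (20.7%) and 14 mural cells (3.97%). Its fibroblast sums were 101.1, 20.3, 117.1 and 114.9 CPM and its mural sums 36.5, 0.194, 24.1 and 14.5 CPM, so that in each strain fibroblasts were higher but the low PdgfrbGFP fibroblasts fell inside the mural range. Unc5b (chr10:60762593-60831581, minus strand), a netrin-1 receptor, ran from 24.6 to 49.2 CPM in fibroblasts and from 1.80 CPM in Acta2GFP to 88.1 CPM in C57BL6 mural cells. Slit3 (chr11:35121224-35708507, plus strand) was at 109.3, 65.2, 45.1 and 102.3 CPM in fibroblasts and at 2.08, 11.3, 91.9 and 181.1 CPM in mural cells. C57BL6 was the highest strain in fibroblasts and the lowest in mural cells, but cluster 5, where Slit3 was highest, held 33.8% of C57BL6 and 44.5% of PdgfrbGFP fibroblasts against 3.85% in Cspg4dsRED and 1.67% in Acta2GFP, and the mural make-up differed as given for Nrp1. Strain and cluster make-up cannot be told apart here either. Slit3 was carried by 207 fibroblasts (22.4%) and 42 mural cells (11.9%). Its receptor Robo1 (chr16:72308306-73046095, plus strand) ran from 11.9 to 33.4 CPM in fibroblasts and from 0.293 to 21.8 CPM in mural cells. Slit2 was higher in fibroblasts in all 4 strains with groups that did not overlap (17.03 ± 8.15 against 2.37 ± 3.29 CPM) at an adjusted p of 0.264.

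Among the ephrins and their receptors, Efna1 (chr3:89271733-89281142, minus strand) was at 45.6, 50.3, 27.9 and 30.9 CPM in fibroblasts and at 30.6, 0.972, 5.91 and 11.9 CPM in mural cells. Efnb1 (chrX:99136130-99148991, plus strand), the ephrin-B1 ligand, was at 11.01, 22.4, 62.9 and 19.5 CPM in fibroblasts and between 3.50 and 14.6 CPM in mural cells. Both pairs of ranges overlapped. Ephb4 (chr5:137350109-137378669, plus strand), the ephrin-B2 receptor, was near equal, at 18.6 to 53.9 CPM in fibroblasts and 18.1 to 43.5 CPM in mural cells. Ephb2 had groups that did not overlap (3.38 ± 2.16 against 0.42 ± 0.159 CPM, adjusted p = 0.105).

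**Figure D3:**
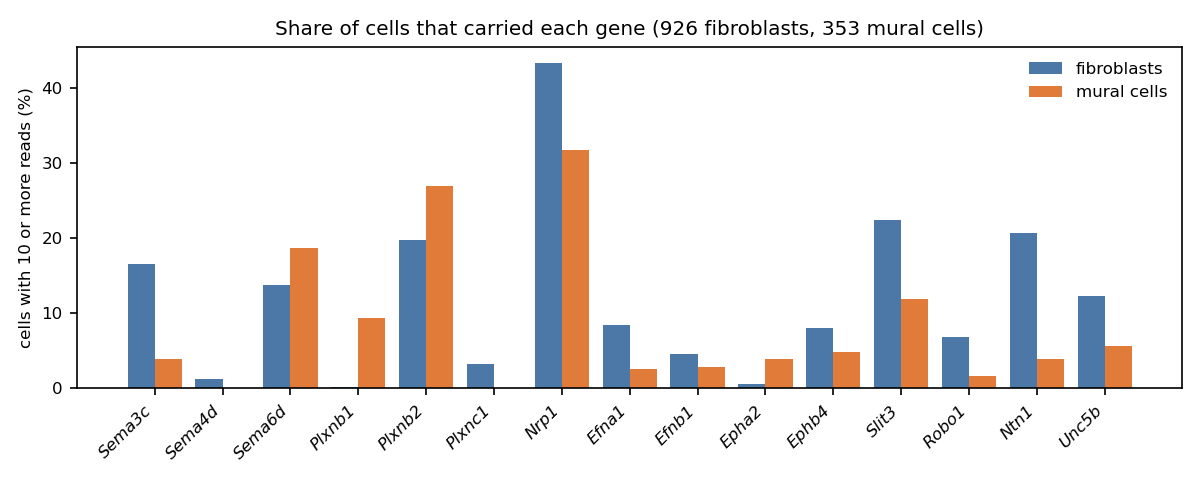
Share of cells with 10 or more reads of each of 15 guidance genes, the 4 called members and the highest member of each family per kilobase, in 926 fibroblasts (blue) and 353 mural cells (orange). Nrp1 is the most widely carried at 43.3% and 31.7%, whereas Sema4d and Plxnc1 are carried by 1.30% and 3.24% of fibroblasts and by no mural cell.

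Within the fibroblasts, cluster 4 was compared with the other clusters of 2 to 5. Its leading member was again Sema3c, at 191, 261, 131.97 and 345 CPM in C57BL6, PdgfrbGFP, Cspg4dsRED and Acta2GFP, while the other clusters together stood at 21.8, 29.3, 0.804 and 10.0 CPM. All 4 strains were higher in cluster 4 and the groups lay far apart (232 ± 91.9 against 15.5 ± 12.6 CPM, log2 fold change 3.86, SE 0.79), at an unadjusted p of 0.000494 and an adjusted p of 0.179. The adjusted p was 0.046 with the C57BL6 plates as separate units, 3.25e-05 with DESeq2 and up to 0.946 when a strain was left out. Sema3d, another secreted class 3 semaphorin, was at 49.3, 57.6, 32.1 and 50.9 CPM in cluster 4 and between 0.201 and 13.1 CPM in the other clusters (log2 fold change 2.66, SE 0.91, adjusted p = 0.798). Of the cluster 4 cells with 10 or more Sema3c reads, 20 also had 10 or more endothelial reads, and the 7 endothelial markers Pecam1, Cdh5, Tie1, Cldn5, Egfl7, Emcn and Flt1 summed to 62.2 ± 49.6 CPM in cluster 4 beside 10.2 ± 5.57, 32.9 ± 28.5 and 10.9 ± 3.88 CPM in clusters 2, 3 and 5, whose part was not tested. Plxnd1, which encodes a plexin that binds Sema3e directly and other class 3 semaphorins with neuropilins, was lower in 4 of 4 strains (2.33 ± 1.69 against 22.2 ± 10.96 CPM, adjusted p = 0.637). With edgeR 0 of the 38 members tested and 0% of the 14104 genes tested passed, 4 members and 4.75% of genes had an unadjusted p under 0.05, and DESeq2 called 2 members and 1.30% of genes.

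**Figure D4:**
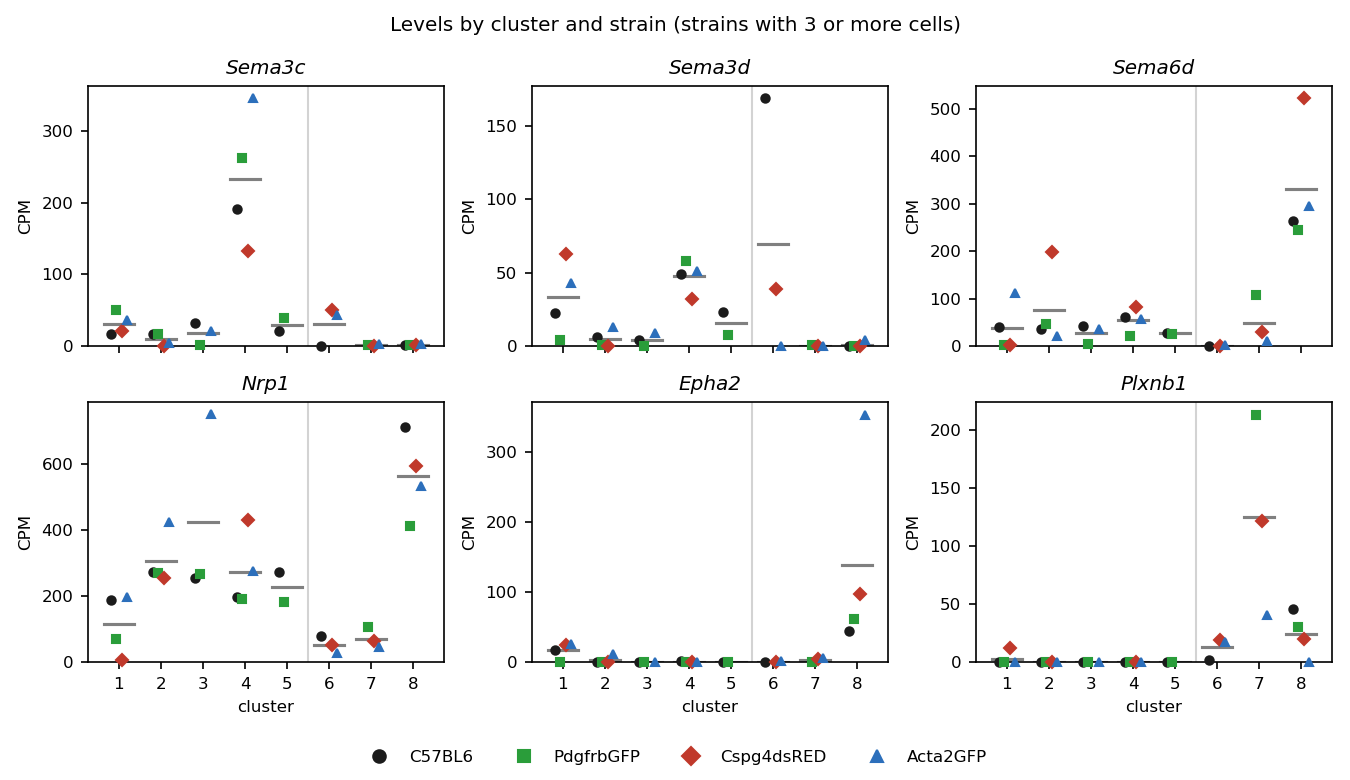
CPM of Sema3c, Sema3d, Sema6d, Nrp1, Epha2 and Plxnb1 in clusters 1 to 8, 1 point per strain with 3 or more cells; the grey line is the mean over strains and the vertical line parts fibroblasts from mural cells. Every strain has its highest Sema3c sum in cluster 4, and the 4 Nrp1 points of cluster 8 lie between 413 and 712 CPM, above the 3 points of cluster 7.

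Cluster 2 was low in the same semaphorins. Sema3c was at 16.9, 16.6, 0.492 and 4.19 CPM there, against 87.05 to 254 CPM in clusters 3 to 5 together (log2 fold change -3.83, SE 0.85, adjusted p = 0.261), and Sema3d at 0.246 to 13.2 CPM against 26.9 to 38.8 CPM. Since cluster 4 is part of the other side, these values are not independent of those for cluster 4. Epha3, an Eph receptor for A-type ephrins, had 3 reads in C57BL6, 3 in PdgfrbGFP and none in the other two strains of cluster 2, against 6.56 ± 4.90 CPM elsewhere (adjusted p = 0.312). Of 39 members tested 0 passed with edgeR, as did 0% of 13870 genes, and 3 members had an unadjusted p under 0.05, against 4.62% of genes. DESeq2 called 2 members (Sema3c and Epha3), against 1.22%.

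Cluster 3 (3 strains with at least 3 cells) had the highest Efna1, at 127.7 CPM in C57BL6, 319 in PdgfrbGFP and 44.3 in Acta2GFP, against 36.2 ± 5.29 CPM in the other fibroblast clusters. The groups did not overlap, but the adjusted p was 0.48 (log2 fold change 2.34, SE 0.81). The 4 pericyte genes also stood higher in cluster 3, at 214 to 294 CPM against at most 148.1 CPM in clusters 2, 4 and 5, and the 4 smooth muscle genes had a mean of 824 ± 694 CPM against 168.5, 312 and 44.7 CPM, and their part was not tested. Other members were nearly empty in this cluster: Efna5 stood at 0.824 ± 0.418 against 38.96 ± 30.8 CPM, Epha4 at 0.418 ± 0.158 against 17.9 ± 12.4 CPM, Nrp2, the neuropilin-2 co-receptor, at 0.197 ± 0.306 against 8.75 ± 5.92 CPM, and Robo2 had no read. Their adjusted p ran from 0.364 to 0.53. Of 43 members tested 0 passed with edgeR, as did 0% of 14803 genes, while 8 members had an unadjusted p under 0.05, against 6.05% of genes, and DESeq2 called 5, against 2.61% of genes. With strain as a block 35 genes passed, none of them a member.

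Cluster 5 could be compared only in C57BL6 and PdgfrbGFP. Slit3 was at 194 and 105.96 CPM there, the highest mean of a slit in any cluster, against 61.4 ± 21.5 CPM in clusters 2 to 4 (log2 fold change 1.36, SE 0.38). The 5 dissociation stress genes also had their highest sum in cluster 5, at 12430 ± 1004 CPM (n = 2) against 7161, 9606 and 6635 CPM in clusters 2, 3 and 4, and their part in the cluster 5 values was not tested. Sema3c (29.5 ± 12.8 against 118.3 ± 37.3 CPM), Ntn4 (0.930 ± 0.490 against 17.4 ± 10.1 CPM) and Unc5b (7.88 ± 1.56 against 40.4 ± 35.2 CPM) were lower in both strains. Every member had an adjusted p of 1. Of 45 members tested 0 passed with edgeR, as did 0% of 16214 genes, 6 members had an unadjusted p under 0.05, against 3.89% of genes, and DESeq2 called 2, against 0.765% of genes.

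In cluster 1 against clusters 2 to 5 no member passed the test, and Ephb3, Sema3f and Slit3 had the lowest p. Slit3 was at 0.507, 13.9, 13.6 and 14.9 CPM in C57BL6, PdgfrbGFP, Cspg4dsRED and Acta2GFP, against 113.3, 71.7, 47.7 and 126.8 CPM in clusters 2 to 5. No strain of one group reached the other (log2 fold change -3.07, SE 0.89, adjusted p = 0.157). Robo1 ran the opposite way, at 34.1, 40.4, 130 and 48.6 CPM in cluster 1 against 7.49 to 29.1 CPM (log2 fold change 2.10, SE 0.77, adjusted p = 0.346), and so did Unc5b, at 108.5, 119.4, 183.9 and 36.5 CPM against 12.7 to 46.99 CPM (log2 fold change 2.08, SE 0.66, adjusted p = 0.217). The Unc5b ranges overlapped through the Acta2GFP sum of cluster 1. In cluster 1 and in clusters 2 to 5, the 5 dissociation stress genes summed to 4607 ± 2103 and 7932 ± 2640 CPM, the mural genes to 351 ± 281 and 116.1 ± 67.6 CPM and the cardiomyocyte genes to 132.1 ± 92.2 and 44.3 ± 28.8 CPM, and their part in these values was not tested.

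Among the semaphorins of cluster 1, Sema3f, a class 3 semaphorin that binds neuropilin-2, was at 19.1 ± 12.1 CPM against 0.927 ± 0.719 (log2 fold change 4.35, SE 1.25, adjusted p = 0.153). Sema3c was at 31.1 ± 15.3 against 94.9 ± 37.1 CPM (adjusted p = 0.354). The receptor kinase Ephb3 held 6 reads in all over the 4 sums of cluster 1 (0.16 ± 0.222 CPM) and 11.2 ± 6.08 CPM in clusters 2 to 5, with a log2 fold change of -5.77 (SE 1.48, adjusted p = 0.0915). Ephb3 passed the filter on low counts through clusters 2 to 5 alone, and a gene that passes in this way has to differ. Epha7 was higher in 4 of 4 strains (81.6 ± 80.9 against 10.3 ± 6.90 CPM, adjusted p = 0.517), and 1 cell gave all of its Cspg4dsRED reads, where cluster 1 had 3 cells. With edgeR 0 of 42 members passed, against 1.33% of the 13201 genes tested. At an unadjusted p under 0.05 there were 7 members, against 8.87% of genes, and DESeq2 called 5 (Sema3f, Unc5b, Slit3, Ephb3 and Robo1), against 5.22% of genes.

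Among the mural clusters, cluster 8 was compared with cluster 7 in the 3 strains that had both. Nrp1 was at 413, 592 and 534 CPM in cluster 8 of PdgfrbGFP, Cspg4dsRED and Acta2GFP and at 105.5, 62.97 and 46.3 CPM in cluster 7, and the C57BL6 cells of cluster 8 had 712 CPM. Cluster 8 was higher in each of the 3 strains and the ranges did not overlap (log2 fold change 2.71, SE 0.65, adjusted p = 0.15). Sema6d was at 245, 522 and 296 against 107.9, 29.3 and 10.5 CPM (log2 fold change 2.65, SE 0.93, adjusted p = 0.433), and Epha2 at 61.8, 97.3 and 354 against 0.491, 4.80 and 6.02 CPM (log2 fold change 5.49, SE 1.32, adjusted p = 0.15). A single cell gave 99.5% of the Epha2 reads of Cspg4dsRED and 63.7% of those of Acta2GFP in cluster 8. The 5 dissociation stress genes summed to 2886 ± 863 CPM in cluster 8 (1822 to 3915, n = 4) and to 7635 ± 1863 CPM in cluster 7 (5489 to 8841, n = 3), without overlap. The 5 fibroblast genes were higher in cluster 8 (960 to 3334 CPM) than in cluster 7 (309 to 777 CPM), also without overlap. The part of either list in these differences was not tested.

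Plxnb1 had the opposite order, with 213, 121.5 and 40.7 CPM in cluster 7 against 30.3, 19.8 and 0.299 CPM in cluster 8 (log2 fold change -3.07, SE 1.43, adjusted p = 0.73). In PdgfrbGFP, which had 9 cells in cluster 7, 1 cell gave 99.8% of its Plxnb1 reads. Sema4a, a membrane semaphorin, reached 341 CPM in PdgfrbGFP, 12.3 in Cspg4dsRED and 2.68 in Acta2GFP in cluster 7, and there too 1 cell gave 99.7% of the PdgfrbGFP reads. The immune markers of cluster 7 ranged from 1.25 to 537 CPM between these strains, and their part in the Sema4a value was not tested. With edgeR 0 of 24 members passed, against 0.194% of 11867 genes. At an unadjusted p under 0.05 there were 3 members (Nrp1, Epha2 and Sema6d), against 6.88% of genes, and DESeq2 called 2 (Epha2 and Ephb4), against 3.2% of genes.

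Cluster 6 held 33 Cspg4dsRED cells and 3 cells each of C57BL6 and Acta2GFP. Against clusters 7 and 8 it was nearly without Sema6d, with 1, 7 and 3 reads in the 3 strains (1.08 ± 0.494 against 177.3 ± 72.6 CPM, log2 fold change -7.25, SE 1.46, adjusted p = 0.16), and it was lower in Nrp1 (52.7 ± 25.4 against 373 ± 275 CPM, adjusted p = 0.453). The ephrin-A5 ligand gene Efna5 was at 155.8, 123.2 and 146.3 CPM in C57BL6, Cspg4dsRED and Acta2GFP against 0.131 to 20.5 CPM (log2 fold change 4.21, SE 1.62, adjusted p = 0.655). Sema3c (31.1 ± 27.1 against 1.33 ± 0.973 CPM), Sema3d (69.2 ± 88.2 against 0.600 ± 0.836 CPM) and Sema3b (97.96 ± 99.2 against 4.51 ± 4.91 CPM) were each higher in 2 of 3 strains. Among 31 members tested 0 passed with edgeR, against 0.0330% of 12117 genes. At an unadjusted p under 0.05 there were 7 members, against 5.74% of genes, and DESeq2 called 5, against 2.81% of genes. The fibroblast markers given above were also higher in cluster 6 than in all mural cells together. The 7 endothelial markers summed to 140.9 ± 125.3 CPM in cluster 6 and to 32.3 ± 28.1 CPM in clusters 7 and 8, and 8 of the 24 cells of cluster 6 with 10 or more Efna5 reads had 10 or more endothelial reads. The part of either list in these values was not tested.

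Across strains, levels spread widely within the same cell group. In fibroblasts, 21 of the 43 members were highest in Acta2GFP, 10 in Cspg4dsRED, 6 in C57BL6 and 6 in PdgfrbGFP, while 19 were lowest in PdgfrbGFP, 14 in Cspg4dsRED, 7 in C57BL6 and 3 in Acta2GFP. Acta2GFP was also the strain with the most genes detected per cell and PdgfrbGFP the one with the fewest, and the part of detection was not tested. The strains also differed in which fibroblast clusters they held: clusters 1 and 4 together made up most Acta2GFP and Cspg4dsRED fibroblasts, and cluster 5 was large only in C57BL6 and PdgfrbGFP, as given for Slit3. Strain and cluster make-up cannot be told apart in these orders. The range over strains was more than 10 times, or included a 0, for 14 members in fibroblasts and 31 in mural cells. Within C57BL6 fibroblasts, 30 of the 43 were higher on one of its 2 large plates than on the other. Ntn1 was at 133.3 CPM on the first and 51.6 CPM on the second. No test between strains was made, since each reporter strain was 1 plate.

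Among the other members that reached 10 CPM in a cluster, several were led by few cells. Sema5a, a semaphorin with thrombospondin repeats, was carried more widely, with 10 or more reads in 91 fibroblasts (9.83%) and 61 mural cells (17.3%). It was found in all clusters and highest in cluster 8 (86.02 ± 46.2 CPM, n = 4). Plxna1, Plxna3, Plxna4, Plxnd1 and Plxna2 peaked at 63.8, 50.8, 45.9, 61.2 and 22.7 CPM in clusters 7, 6, 1, 7 and 2. The reads of Plxna3 in cluster 6 came from 1 cell each of C57BL6 and Cspg4dsRED. Sema3f (108.5 ± 148.6 CPM, n = 3) and Ephb4 (106.2 ± 160 CPM, n = 3) also peaked in cluster 6, where 1 strain of 3 cells carried most of the mean. Epha1 peaked at 33.1 CPM in cluster 6, but 236 of its 3928 exonic bases overlap Zyx on the opposite strand, which had 175995 reads against 3833 of Epha1, and without a stated strand setting the reads of the pair cannot be told apart. 

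Several of these were high in single strains rather than in a cluster as a whole. Sema7a, the ligand of plexin-C1, was at 42.2, 8.25, 0.15 and 0 CPM in C57BL6, PdgfrbGFP, Cspg4dsRED and Acta2GFP cells of cluster 8. Sema5b had the reverse order there, at 0, 0.1079, 30.4 and 81.8 CPM in these strains. Efna4, an ephrin-A ligand, was found in cluster 8 only in C57BL6 (44.3 CPM), and some of its exonic bases overlap 4731419I09Rik, whose reads cannot be told apart from its own there. In cluster 3, 1 cell gave all of the PdgfrbGFP reads of the ephrin-A2 gene Efna2 and 1 cell gave 99.45% of its Acta2GFP reads, and 1 Acta2GFP cell gave 99.63% of that strain's reads of the receptor gene Ephb6. Unc5c in cluster 1 came to 17.1 CPM in C57BL6 and to 45 reads of 1 cell in Cspg4dsRED. The cluster 1 sums of Sema6a, a transmembrane semaphorin that binds plexin-A2 and plexin-A4, ran from 4.58 to 81.4 CPM, and those of Plxna4 from 0.3716 to 83.9 CPM, both lowest in PdgfrbGFP and highest in Cspg4dsRED. Ntn4, a netrin of basement membranes, was highest in cluster 4 (16.4 ± 9.68 CPM, n = 4), and Slit2 in cluster 5 (20.4 ± 3.51 CPM, n = 2).

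The share of cells with a read was also compared at equal depth, each cell being thinned to 50000 reads and the 2 cells below that depth, 1 each in clusters 7 and 8, left out. Sema3c was then detected in 50.6% of cluster 4 cells (60.1% before thinning), in 41% of cluster 6 and in 10.0% to 12.3% of clusters 2, 3 and 5. Cluster 7 with 5.13% and cluster 8 with 4.1% were lowest. Nrp1 was detected in 65.1% of cluster 8 and 29.9% of cluster 7, and Slit3 in 51.3% of cluster 6 and 8.72% of cluster 8. In cluster 8, 2 cells held 50% of the Slit3 reads.

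The 23 members that stayed under 10 CPM in every cluster were Sema3a, Sema3e, Sema3g, Sema4c, Sema4f, Sema4g, Sema6b, Sema6c, Plxnb3, Nrp2, Efna3, Efnb2, Efnb3, Epha5, Epha6, Epha8, Epha10, Ephb1, Slit1, Robo2, Robo3, Robo4 and Unc5d. Efnb2, the ephrin-B2 ligand of EphB4, came closest, at 9.66 CPM in cluster 7, and Nrp2 reached 8.97 CPM in cluster 5. At the low end, Ephb1 had 7 reads in all cells, Plxnb3 had 12, Epha10 had 14 and Slit1 had 15.

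Further genes of these pathways that the rule did not take were read in the same fit. Of 24 other receptors and ligand partners, 16 were tested between fibroblasts and mural cells and 2 rose in fibroblasts: Cdon, a hedgehog co-receptor of the immunoglobulin family (log2 fold change 3.64, SE 0.94, adjusted p = 0.0494), and Rgmb, a ligand of neogenin (log2 fold change 1.69, SE 0.29, adjusted p = 0.0079). Over all genes 5.93% passed, 3.47% higher in fibroblasts. The median log2 fold change of the list was 0.74, beside -0.02 over all genes. Of 43 intracellular effectors 42 were tested, 3 passed higher in fibroblasts and 2 higher in mural cells, and the median log2 fold change was -0.13. Among them Ablim1, an actin-binding protein, was higher in fibroblasts (log2 fold change 4.10, SE 0.62, adjusted p = 0.0042), and Vasp, an actin regulator, was higher in mural cells (log2 fold change -2.41, SE 0.34, adjusted p = 0.00282). In the other 7 comparisons edgeR called 0 genes of either list. At an unadjusted p under 0.05 there were 0 to 5 partners and 2 to 6 effectors per comparison, where 3.89% to 8.87% of all genes were, and DESeq2 called 0 to 4 of each list, where it called 0.765% to 5.22% of all genes.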

How the data were processed

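Smart-seq2 reads of 1279 heart cells had been trimmed with Trim Galore, aligned with TopHat2 to GRCm38 and counted per gene with featureCounts by the authors. They deposited raw read counts with 92 ERCC spike-ins and assigned pagoda2 clusters. Before clustering they had removed low-quality and suspected doublet cells, cells that expressed neither Pdgfra nor Pdgfrb, and cells with clear endothelial or immune signatures. The strand setting is not given in the sources used here, and no doublet caller was run. Counts were summed per strain and side (at least 3 cells), without spike-ins, and tested with the edgeR 4.0.16 quasi-likelihood test in R 4.3.3 (TMM, filterByExpr with a minimum count of 10, Benjamini-Hochberg over all genes tested); DESeq2 1.42.0 was an alternative. The code was tested on simulated data. Each SE was obtained from the fold change and the F statistic. Strains are replicates, so p-values measure the spread between these captures. The clusters were made from the same counts, so that tests between clusters are not independent of the clustering. Members named reached 10 CPM in a cluster or were called, and those given in full were called or the highest of a family per kilobase of GENCODE M21 exons. The members and lists were chosen with earlier results of these data known. Intervals and floors cover counting error only. Deviations of the 2 sides of a strain correlated above 0.1 in every strain for clusters 3, 4 and 5 (0.11 to 0.24), where strain as a block changed no member's call. Alternatives were RLE scaling, no filter on low counts, strain as a block, plates as units, 10 cells per sum, leaving out each strain, and leaving out clusters 1 and 6. Some results for intracellular effectors are not reported here.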

Additional observations from a re-analysis of the deposited data

Results flagged for a closer look

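In 17 of 90 groups of 4 strains looked at, for the 15 genes given in full, 1 strain stood far from the other strains, and chance flags about 1 in 20 groups of independent, normally distributed values. These CPM are often led by single cells and the groups are nested, so the rate expected here is not known. Values are CPM.

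Among the ligands, Sema3c in cluster 8 was at 2.39 in Acta2GFP against 0.971 to 1.085 elsewhere. Sema4d was at 6.13 in cluster 2 of Acta2GFP, where the next strain had 0.1755, and at 21.61 in cluster 4 of Cspg4dsRED, where the next had 0.618. Sema6d in cluster 2 was at 198.3 in Cspg4dsRED against 21.2 to 46.3. Efna1 in cluster 8 was at 11.25 in C57BL6 against at most 1.025, and Efnb1 in cluster 4 was at 134.1 in Cspg4dsRED against 2.22 to 19.71. Slit3 was lowest in cluster 1 of C57BL6, at 0.507 against 13.57 to 14.9, and highest in cluster 4 of Acta2GFP, at 160 against 46.2 to 60.6. Ntn1 in fibroblasts was lowest in PdgfrbGFP, at 20.27 against 101.1 to 117.1.

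Among the receptors, Plxnb1 in cluster 1 was at 12.34 in Cspg4dsRED against at most 0.283. Plxnb2 in mural cells was lowest in Acta2GFP, at 115.3 against 169.2 to 177.7. Nrp1 in cluster 2 was at 425.3 in Acta2GFP against 254.4 to 273.9. Epha2 was highest in Acta2GFP both in cluster 2, at 11.41 against at most 0.1755, and in cluster 8, at 354.1 against 45.3 to 97.3. Ephb4 was also highest in Acta2GFP, at 43.45 in mural cells against 18.12 to 21.8 and at 93.19 in cluster 1 against at most 15.36. Robo1 in cluster 1 was at 129.6 in Cspg4dsRED against 34.1 to 48.6, from 3 cells.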

How the results depend on the processing

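Between fibroblasts and mural cells, where edgeR called 4 members, DESeq2 called 8, and 0 to 3 members were called when a strain was left out: 0 without PdgfrbGFP, 1 without C57BL6 (Plxnb1), 2 without Acta2GFP (Plxnb1 and Epha2, which is not among the 4) and 3 without Cspg4dsRED (Plxnb1, Sema3c and Sema6d, which is not among the 4). The share of all genes called moved with these counts, from 5.93% to 2.66%, 2.79%, 2.70% and 3.91% in that order. RLE scaling, plates as units and leaving out clusters 1 and 6 each gave 5 (6%, 5.87% and 7.27% of all genes), and no filter on low counts gave 3 (2.58%), with Sema4d at an adjusted p of 0.0712. Epha2 passed with RLE scaling (0.0499), without Acta2GFP (0.0499) and with plates as units (0.0491). For the cluster comparisons, where edgeR called 0 members, DESeq2 called 5 in cluster 1, 2 in cluster 2, 5 in cluster 3, 2 in cluster 4, 2 in cluster 5, 5 in cluster 6 and 2 in cluster 8 against 7. Without the filter on low counts 1 member was called in cluster 6 (Sema6d, adjusted p = 0.00885; 0.418% of genes), in cluster 8 against 7 (Epha2, 0.0268; 0.855%) and in cluster 5 (Sema3c, 0.0314; 0.119%), and with plates as units 1 in cluster 1 (Ephb3, 0.0353; 1.92%) and 1 in cluster 4 (Sema3c, 0.046; 0.159%). With plates as units too, Ephb3 could not have passed the filter without clusters 2 to 5. No strain left out gave a call in any cluster comparison. The cause of these changes was not tested. Sema3f in cluster 3 reversed, from a log2 fold change of 4.66 to -0.25 both without PdgfrbGFP and with at least 10 cells per sum, with a range of -0.25 to 4.95 over the strains left out. Over 413 refits of 49 log2 fold changes, 360 kept direction and side of the threshold, 37 newly passed it, 14 no longer passed and 2 reversed. RLE scaling moved the median of all genes from -0.32 to -0.17 in cluster 6, from 0.18 to 0.04 in cluster 8 against 7 and from -0.13 to 0.04 in cluster 3.

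With strain as a replicate block, 4 members were again called between fibroblasts and mural cells: Plxnc1 no longer passed (adjusted p = 0.0613) and Epha2 did (0.0485). The 2 sides shared their strain and, in the reporter strains, their plate, and the main fit did not use that pairing. Their deviations correlated at 0.07 to 0.18 there. The block gave 0 calls of members in the cluster comparisons.

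The highest cluster was the same for 33 of the 43 named genes when the CPM of single cells were averaged, and the cluster with the highest share of cells with a read was the same for 32 after cells were thinned to 50000 counts. Leaving out a strain in cluster 5, and 10 cells per sum in cluster 6, could not be fitted because 1 strain would remain. Each reporter strain was 1 plate and some sums held 3 cells; the part of depth and cell number in the few calls was not tested.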
